A study of Mus musculus with 27 samples.

Results

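The dual oxidases and their maturation factors are 4 genes of the mouse, Duox1, Duox2, Duoxa1 and Duoxa2. They were chosen by name, as those symbols among the 50559 gene symbols of the count table. Levels are given in CPM, the estimated count of a gene divided by the library total and multiplied by 10 to the power of 6. All 4 genes passed the filter on low counts in each fit, so none was left untested.

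Duox1 and Duox2 are large membrane enzymes of the NADPH oxidase family that pass electrons from NADPH across the apical membrane and release hydrogen peroxide outside the cell. They leave the endoplasmic reticulum and work at the surface only together with a partner protein, Duoxa1 for Duox1 and Duoxa2 for Duox2. In the thyroid the peroxide is used to attach iodide to thyroglobulin (Tg), with Duox2 as the main source, and loss of Duox2 or Duoxa2 causes congenital hypothyroidism. In the airway, salivary ducts and gut the same enzymes feed peroxide to lactoperoxidase (Lpo) and take part in defence against microbes.

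RNA came from mouse thyroid gland organoids, spheres that grow in Matrigel from dissociated thyroid tissue of C57BL/6 mice aged 8 to 12 weeks. The medium of every group held EGF, FGF2, Y27632 and B27. Irradiated organoids received photons at day 5 of culture, and bulk RNA was sequenced from the 3′ ends of transcripts with Smart3SEQ. The 27 libraries form 9 groups of 3, namely 0 Gy at days 5, 7 and 11 and each of 2, 4 and 7 Gy at days 7 and 11. Days 7 and 11 therefore fall 2 and 6 days after irradiation. Each group holds 1 library from each of the cultures mTG11, mTG12 and mTG14, and library values below are given in that order.

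The defining genes of thyroid follicular cells were near the limit of detection. Over all 27 libraries the iodide transporter gene Slc5a5 had 6 counts, the TSH receptor gene Tshr had 11 and the transcription factor gene Pax8 had 23.19. The 5 follicular markers summed to 4.83, 18.6 and 4.56 CPM at day 5, to 2.08, 3.18 and 1.85 CPM at day 7 and to 0.238, 6.70 and 1.92 CPM at day 11 without irradiation, with Tg the most abundant. At day 11 without irradiation Slc5a5 and Tshr were at 0 in each library. Foxe1 and Nkx2-1, which thyroid cells share with other foregut epithelia, were present at means of 29.8 and 12.5 CPM over the 27 libraries. The label thyroid gland organoid thus names the source of the tissue, while most of the defining transcripts of the follicular cell were absent or close to absent.

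Genes of stratified epithelium were abundant instead. The basal markers Krt5, Krt14 and Trp63 summed to 11519.7 CPM, 13733 CPM and 14018 CPM at day 5, to 8022 CPM, 9964 CPM and 8551 CPM at day 7 and to 3055 CPM, 4853 CPM and 3537 CPM at day 11 without irradiation, with Krt14 the most abundant at day 5 and Krt5 at days 7 and 11. Markers of suprabasal squamous cells, led by Krt6a at day 5 and Krt13 at day 11, summed to 9410 CPM, 11751 CPM and 12387 CPM at day 5 and to 5125 CPM, 5128 CPM and 6439 CPM at day 11. Airway secretory markers, led by Cyp2f2, summed to 636 CPM, 806 CPM and 279 CPM at day 5 and to 1155 CPM, 968 CPM and 952 CPM at day 11. That sum hides opposite courses. From day 5 to day 11 the log2 difference was 1.89 for Cyp2f2, -3.17 for Scgb3a2 and -1.91 for Scgb1a1, with a median of -0.85 over the 7 markers. Parathyroid markers summed to at most 1.73 CPM in any group mean, with Gcm2 at 0 in all 27 libraries, and the summed endothelial markers stayed under 1 CPM in each group mean.

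Depth limited the low values. The smallest library held 2528866 counts, the largest 5723150 and the median library 3758142, and 3 counts, taken as the floor of detection in a library, stood for 0.524 to 1.19 CPM. The day 5 libraries were the shallowest of the non-irradiated ones, at 2630564 to 3507863 counts. At 7 Gy and day 11 mTG11 and mTG12 had the largest totals of all, 5723150 and 5557026 counts, while mTG14 had 3661836. Such floors and the intervals of ratios cover counting error only.

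The 4 genes lie side by side on mouse chromosome 2 as a pair of head-to-head couples. In build GRCm39 Duox2 takes positions 122109728 to 122128930 on the minus strand, Duoxa2 122129380 to 122133366 on the plus strand, Duoxa1 122132672 to 122144217 on the minus strand and Duox1 122146153 to 122178453 on the plus strand. The 5′ ends of Duox2 and Duoxa2 are 450 bases apart and those of Duoxa1 and Duox1 are 1936 bases apart, so each oxidase starts next to its own partner. The canonical transcripts of Duox1 and Duox2 have 33 exons each, that of Duoxa1 has 10 and that of Duoxa2 has 6.

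Transcript ends overlap in this cluster, and the assay counts transcript ends. Duoxa2 and Duoxa1 share 695 bases on opposite strands, positions 122132672 to 122133366, which hold the 3′ end of both genes. The 3′ end of Duox1 shares 834 bases, 122177620 to 122178453, with Shf on the other strand. Whether the counting used the strand is not given in the sources used here, so reads from these stretches could not be assigned and the counts of these genes are uncertain to that extent. Values with a fraction, whose meaning is not given in the sources used here, stood in 8 of 27 libraries for Duox1, 7 for Duox2, 13 for Duoxa2 and 0 for Duoxa1. Without irradiation the means of Shf were 8.90 ± 2.92 CPM (day 5), 15.2 ± 3.81 CPM (day 7) and 10.6 ± 1.93 CPM (day 11), with SD and n = 3.

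**Figure D1:**
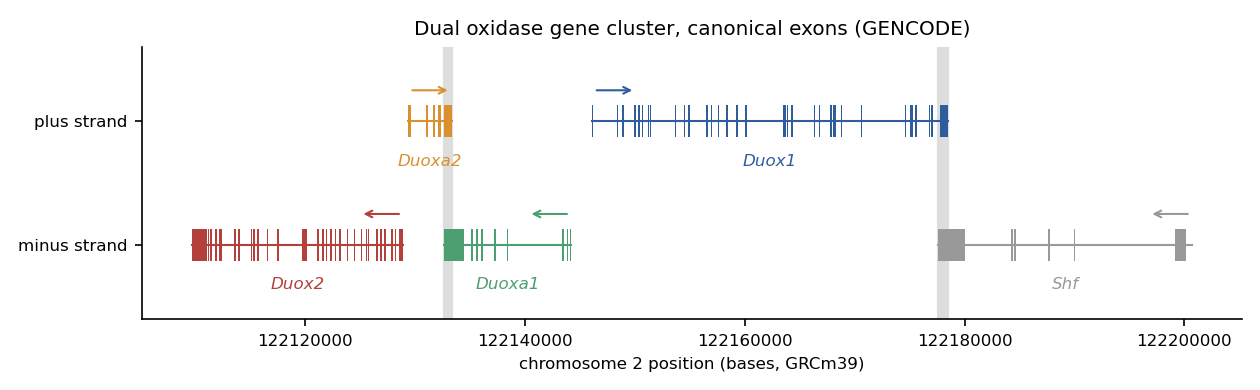
Map of the gene cluster on mouse chromosome 2 (build GRCm39, position along the horizontal axis), with Duox2, Duoxa2, Duoxa1, Duox1 and Shf drawn to scale and arrows for their strand. Duox2 and Duoxa2 start 450 bases apart, and the 3′ ends of Duoxa2 with Duoxa1 and of Duox1 with Shf overlap.

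The first comparison asks how the genes change while organoids form without irradiation. Duox2, the main thyroid oxidase, was close to undetected at day 5 with 0.689, 0 and 0.855 CPM, which are 2, 0 and 3 counts. At day 7 it had 1.95, 3.18 and 1.29 CPM, and at day 11 it had 82.5, 42.6 and 67.8 CPM. The 3 sets do not overlap, and every culture was higher at each later day. From day 7 to day 11 Duox2 rose by a log2 fold change of 4.86 (SE 0.34, edgeR adjusted p = 2.12e-06), a ratio of pooled counts of 31.1 with a 95% exact interval of 20.8 to 48.9.

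Between days 5 and 7 the evidence for Duox2 depended on the test. The pooled ratio was 3.77 (interval 1.41 to 12.7, from 24 against 5 counts) and the value was higher in 3 of 3 cultures. The fitted log2 difference of 2.05 (SE 0.81), which depends on the prior count at such low counts, missed the threshold in edgeR with an adjusted p of 0.0929. It passed with the culture as a block, at 2.07 and an adjusted p of 0.0435. DESeq2 gave 0.0314, and the range over all alternatives was 0.0047 to 0.246. From day 5 to day 11 Duox2 rose by a log2 fold change of 6.92 (SE 0.45, edgeR adjusted p = 3.07e-07), and the pooled counts of 752 and 5 gave a ratio of 117.5 with an interval of 50.1 to 363.

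Duoxa2, the partner that carries Duox2 to the cell surface, had 1 count in each library of day 5, equal to 0.345, 0.380 and 0.285 CPM. It had 3.39, 4.24 and 3.86 CPM at day 7 and 153.9, 105.7 and 149 CPM at day 11. No library of one day came near those of another. The rise from day 5 to day 7 was a log2 fold change of 3.53 (SE 0.57, edgeR adjusted p = 0.00117), with a pooled ratio of 11.5 and a wide interval of 3.70 to 58.1 because day 5 held 3 counts. From day 7 to day 11 it rose by 5.14 on the log2 scale (SE 0.20, adjusted p = 2.84e-08 in edgeR), a pooled ratio of 35.7 with an interval of 26.5 to 49.4. Across the whole span, from day 5 to day 11, the fitted log2 fold change was 8.67 (SE 0.30, edgeR adjusted p = 4.8e-09) and the pooled ratio 411.8, with an interval of 140.7 to 1999. With so few counts at day 5 the size of this fold depends on the prior count, as it does for Duox2. The SE of both folds was derived from the test statistic. It is too narrow to stand for the counting error at day 5, which the exact intervals cover.

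Duox1 went the other way. This second oxidase had 30.3, 35.7 and 28.5 CPM at day 5, 23.1, 24.9 and 23.4 CPM at day 7 and 5.12, 11.3 and 9.76 CPM at day 11. Each culture was lower at each later day and the 3 sets do not overlap, although the step from day 5 to day 7 is small. That first step had a log2 difference of -0.25 (SE 0.19, edgeR adjusted p = 0.403) and was not called. From day 7 to day 11 Duox1 fell by 1.45 on the log2 scale (SE 0.22, edgeR adjusted p = 0.000609) and from day 5 to day 11 by a log2 fold change of -1.70 (SE 0.22, edgeR adjusted p = 6.4e-05), with day 5 at 3.64 times the pooled level of day 11. Its neighbour Shf was called higher at day 7 than at day 5 and not called between days 5 and 11 or between days 7 and 11, where its log2 difference was -0.53 (SE 0.25, edgeR adjusted p = 0.168).

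Duoxa1, the partner of Duox1, was lower at day 11 as well. It had 44.1, 40.7 and 43.9 CPM at day 5 and 42.5, 39.2 and 45.5 CPM at day 7, sets that overlap, with a log2 difference of 0.13 that was -0.02 when library totals were used without TMM factors (edgeR adjusted p = 0.568 and 0.949). At day 11 the values were 17.6, 24.7 and 15.7 CPM, all below every library of the earlier days. Duoxa1 fell by 1.14 on the log2 scale from day 7 to day 11 (SE 0.15, edgeR adjusted p = 0.0002) and by 1.01 from day 5 to day 11 (SE 0.15, adjusted p = 0.000218). Day 5 stood at 2.23 times day 11 in pooled counts. The opposite courses of Duoxa2 and Duoxa1, whose 3′ ends overlap, were measured on counts that could not be separated by strand within the shared stretch.

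Against all genes tested, these counts read as follows. From day 5 to day 7, 1 of 4 genes was called (Duoxa2) where 21.6% of 18442 genes were called. From day 7 to day 11, all 4 were called, Duox2 and Duoxa2 as higher and Duox1 and Duoxa1 as lower, where 21.2% of genes were called. From day 5 to day 11, again all 4 were called in the same directions, where 41.3% of genes were called, 3921 higher and 3700 lower. The 3 comparisons share libraries, so they are not independent of each other.

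Scaling moved the background of the day comparisons. Without TMM factors the median log2 difference of all genes was -0.11 in place of 0.04 from day 5 to day 7 and -0.08 in place of 0.06 from day 5 to day 11, and the called genes were then 1531 of 4270 higher and 3049 of 7638 higher. The calls and directions of the 4 genes named above were the same under both scalings, with the exception given for Duoxa1. In bulk RNA a gene that is lower may reflect fewer cells of a type or less RNA per cell, and these cannot be told apart, and the same holds for a rise.

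**Figure D2:**
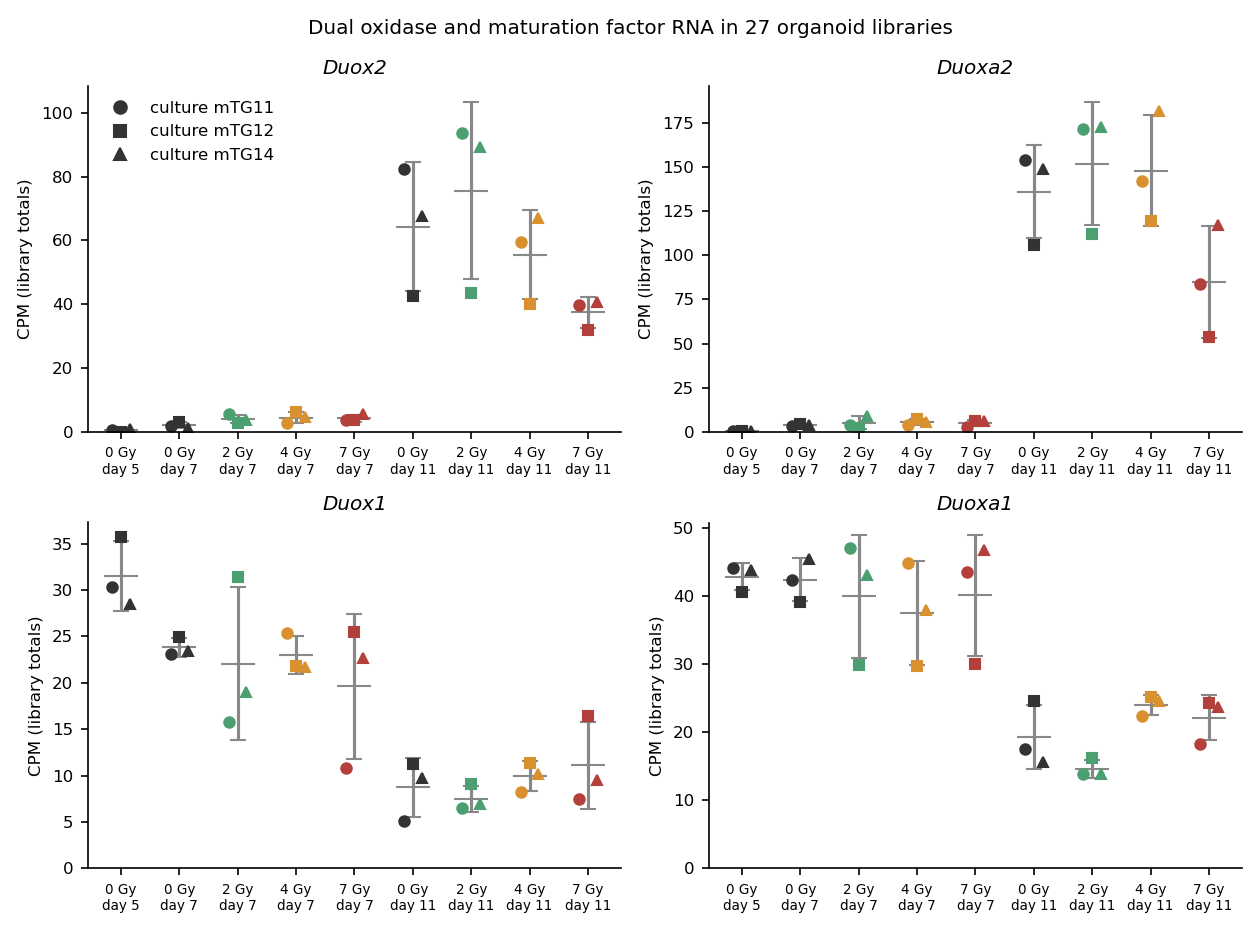
CPM of Duox2, Duoxa2, Duox1 and Duoxa1 in each of the 27 libraries, by day and dose, with a point for each culture, the mean of the group as a line and the SD as a bar, on vertical axes of their own. Duox2 and Duoxa2 were near 0 CPM at day 5 and stood at 31.9 to 93.8 CPM and 53.5 to 182 CPM at day 11, while Duox1 had its highest mean at day 5 and Duoxa1 stood higher at days 5 and 7 than at day 11.

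Over all 9 groups the order of the levels followed the day more than the dose. For Duox2 the 4 groups of day 11 came first, at means of 75.5 ± 27.7 CPM (2 Gy), 64.3 ± 20.2 CPM (0 Gy), 55.5 ± 14.0 CPM (4 Gy) and 37.4 ± 4.85 CPM (7 Gy), and neighbours in that order overlapped. The 4 groups of day 7 followed without overlap with day 11, at 4.48 ± 1.83 CPM (4 Gy), 4.31 ± 1.11 CPM (7 Gy), 4.01 ± 1.39 CPM (2 Gy) and 2.14 ± 0.961 CPM (0 Gy), and day 5 was last at 0.515 ± 0.454 CPM. Every library of day 7, at each of the 4 doses, lay above every library of day 5. All spreads are SD with n = 3.

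Duoxa2 had the same separation by day. Its day 11 means were 152 ± 34.6 CPM (2 Gy), 148 ± 31.4 CPM (4 Gy), 136 ± 26.4 CPM (0 Gy) and 84.7 ± 31.8 CPM (7 Gy), its day 7 means 5.74 ± 1.70 CPM (4 Gy), 5.10 ± 3.63 CPM (2 Gy), 4.93 ± 1.88 CPM (7 Gy) and 3.83 ± 0.428 CPM (0 Gy), and its day 5 mean 0.337 ± 0.048 CPM. Within a day neighbours in the order overlapped, while days did not.

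Duox1 was highest at day 5, at 31.5 ± 3.76 CPM, above the 0 Gy group of day 7 without overlap. The means of day 7 ran from 23.8 ± 0.985 CPM (0 Gy) over 23.0 ± 2.06 CPM (4 Gy) and 22.1 ± 8.21 CPM (2 Gy) to 19.6 ± 7.78 CPM (7 Gy), and those of day 11 from 11.1 ± 4.67 CPM (7 Gy) over 9.94 ± 1.58 CPM (4 Gy) and 8.71 ± 3.20 CPM (0 Gy) to 7.49 ± 1.37 CPM (2 Gy). At 7 Gy the days overlapped, since mTG11 had 10.8 CPM at day 7 and mTG12 had 16.4 CPM at day 11.

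For Duoxa1 day 5 and the day 7 groups overlapped, and their order depended on the scaling, at means of 42.9 ± 1.93 CPM (day 5), 42.4 ± 3.16 CPM (0 Gy), 40.2 ± 8.90 CPM (7 Gy), 40.0 ± 9.02 CPM (2 Gy) and 37.6 ± 7.59 CPM (4 Gy). With TMM factors day 5, at 40.0 CPM, was below 0 Gy of day 7, at 43.2 CPM. All day 11 groups lay below them, at 24.1 ± 1.45 CPM (4 Gy), 22.1 ± 3.29 CPM (7 Gy), 19.3 ± 4.73 CPM (0 Gy) and 14.6 ± 1.33 CPM (2 Gy). The partner of Duox1 was thus lower at day 11 than at day 7 at each dose, a gap that no library crossed.

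An oxidase works with its partner, so the balance of each couple was followed as the log2 ratio of their CPM after adding 1 CPM to each. At low levels the added CPM sets part of the ratio and of its changes. For Duox2 and Duoxa2 the mean ratio was 0.13 at day 5, -0.66 at day 7 and -1.10 at day 11 without irradiation (SD 0.53, 0.39 and 0.20, n = 3). Day 5, with at most 3 counts of either gene in a library, does not give a usable ratio. From day 7 to day 11 the difference was -0.44 (exact permutation p = 0.2, without pairing, where 0.1 is the smallest that 3 against 3 libraries can give), with -0.32, -0.96 and -0.03 in the 3 cultures. It was -0.34 with 0.5 CPM added (exact p = 0.3) and -0.57 with 2 CPM added (exact p = 0.1). The ratio was lower in 3 of 3 cultures with 1 or 2 CPM added and in 2 of 3 with 0.5 CPM added, so the direction in mTG14 and the size depended on the added CPM.

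The ratio of Duox1 to Duoxa1 rests on more counts. Its mean was -0.44 at day 5, -0.81 at day 7 and -1.10 at day 11 (SD 0.23, 0.15 and 0.49, n = 3). The differences from day 5 were -0.37 at day 7 and -0.66 at day 11, both with an exact permutation p of 0.1, and that from day 7 to day 11 was -0.29 (exact p = 0.5). From day 5 to day 11 the 3 cultures had -1.08, -0.88 and -0.03. With 2 CPM added that mean difference was -0.59 (exact permutation p = 0.2) and mTG14 had 0.0019, so its direction depended on the added CPM. These tests did not use the pairing by culture, and without it no ratio could pass a threshold of 0.05. From day 5 to day 7 the ratio of Duox1 to Duoxa1 was lower in each culture. A test paired by culture is not reported for the ratios. Between irradiated and non-irradiated libraries of the same day the differences of both ratios lay between -0.31 and 0.54. Their exact permutation p, again without pairing, was 0.2 or more. At 4 Gy and day 7 both ratios were higher than at 0 Gy in each culture. The gaps were 0.05, 0.21 and 0.15 for Duox1 to Duoxa1 and 0.08, 0.11 and 0.82 for Duox2 to Duoxa2. At 4 Gy and day 11 the ratio of Duox2 to Duoxa2 was lower in each culture, at means of -1.41 against -1.10. In all other dose comparisons of the ratios the cultures differed in sign. Agreement of 3 cultures in sign is not rare by chance, so these cases carry little weight.

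Irradiation was compared with 0 Gy within each day, first at day 7. Duox2 had 5.54, 2.83 and 3.65 CPM at 2 Gy, 2.62, 6.29 and 4.53 CPM at 4 Gy and 3.76, 3.60 and 5.59 CPM at 7 Gy, against 1.95, 3.18 and 1.29 CPM at 0 Gy. It was higher than at 0 Gy in 2 of 3 cultures at 2 Gy and in 3 of 3 at both higher doses, and at 7 Gy the sets did not overlap. The log2 differences were 0.79, 1.03 and 0.97 with edgeR adjusted p of 0.664, 0.241 and 0.189, so none was called.

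Duoxa2, its partner, had 3.95, 2.18 and 9.16 CPM at 2 Gy, 4.08, 7.48 and 5.66 CPM at 4 Gy and 2.76, 5.91 and 6.12 CPM at 7 Gy at day 7, against 3.39, 4.24 and 3.86 CPM at 0 Gy. At 4 Gy it was higher than at 0 Gy in 3 of 3 cultures, with a pooled ratio of 1.54 (exact 95% interval 1.05 to 2.29, for counting error only), and in 2 of 3 at 2 Gy and at 7 Gy. Its log2 differences were 0.29, 0.56 and 0.35, with edgeR adjusted p from 0.596 to 0.935. Duox1 had 15.8, 31.4 and 19.0 CPM at 2 Gy, 25.4, 21.9 and 21.7 CPM at 4 Gy and 10.8, 25.4 and 22.6 CPM at 7 Gy. Duoxa1 had 47.1, 29.8 and 43.1 CPM at 2 Gy, 44.9, 29.7 and 38.0 CPM at 4 Gy and 43.6, 30.1 and 46.8 CPM at 7 Gy. In both of the latter genes each irradiated set overlapped the set of 0 Gy, mTG12 was the lowest Duoxa1 library at each dose, and the log2 differences lay between -0.29 and -0.08.

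At day 7, 0 of 4 genes were called by edgeR at 2 Gy, where 0.124% of 19346 genes were called, or 138 in place of 24 genes with the culture as a block. At 4 Gy it was 0 of 4, where 1.63% of genes were called (315, or 1009 with the block). At 7 Gy it was again 0 of 4, where 6.95% were called (1345, or 2193 with the block). A linear trend over dose gave 0 of 4, with 8.62% of genes called, and slopes from -0.04 to 0.12 log2 units per Gy. With the culture as a block none of the 4 was called at day 7 either. At 24.5 to 60.5 counts a group a missed call for Duox2 does not show that nothing changed. The number of genes called at 2 Gy was 8 without 0 Gy mTG12 or 2 Gy mTG12, 9 without 0 Gy mTG11 or 0 Gy mTG14 and 15 without 2 Gy mTG14. At 4 Gy it was 136 and 145 without 0 Gy mTG11 or 0 Gy mTG14 and 133 and 125 without 4 Gy mTG11 or 4 Gy mTG12. At 7 Gy it was 746 without 0 Gy mTG14 and 705 and 861 without 7 Gy mTG11 or 7 Gy mTG12.

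At day 11 the question is the same 6 days after irradiation, when Duox2 and Duoxa2 had more counts than at day 7. Duox2 had 93.8, 43.6 and 89.2 CPM at 2 Gy, 59.4, 39.9 and 67.1 CPM at 4 Gy and 39.8, 31.9 and 40.7 CPM at 7 Gy, against 82.5, 42.6 and 67.8 CPM at 0 Gy. All 3 libraries of 7 Gy lay below all 3 of 0 Gy, whereas 2 Gy and 4 Gy overlapped it. At each dose mTG12 was the lowest of the 3 cultures.

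The difference of Duox2 at 7 Gy was a log2 value of -0.82 (SE 0.28, edgeR adjusted p = 0.175), lower in 3 of 3 cultures and not called. With the culture as a block it was -0.78 (SE 0.12) with an adjusted p of 0.000952, which is a call. Over all alternatives the adjusted p ranged from 1.44e-06 to 0.441. In pooled counts 0 Gy stood at 1.75 times 7 Gy, with an exact 95% interval of 1.57 to 1.96. At 2 Gy and 4 Gy the log2 differences of Duox2 were 0.19 and -0.24 (edgeR adjusted p = 0.999 and 0.916).

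Duoxa2 had 171, 112 and 173 CPM at 2 Gy, 142, 119.7 and 182 CPM at 4 Gy and 83.7, 53.5 and 117 CPM at 7 Gy, against 153.9, 105.7 and 149 CPM at 0 Gy. Each culture was lower at 7 Gy than at 0 Gy, but the sets overlap because mTG14 at 7 Gy exceeded mTG12 at 0 Gy. The log2 difference was -0.73 (SE 0.25, edgeR adjusted p = 0.182), and with the culture as a block -0.76 (SE 0.11, adjusted p = 0.000701), over a range of 4.59e-06 to 0.435 for all alternatives. The pooled level at 0 Gy was 1.70 times that at 7 Gy (interval 1.57 to 1.83). At 2 Gy and 4 Gy the differences were 0.12 and 0.09. The thyroid oxidase and its partner were thus lower by similar amounts at 7 Gy, and both were called with the culture as a block and without the filter on low counts, and in no other fit.

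Duox1 and Duoxa1 gave no call at day 11. Duox1 had 6.49, 9.05 and 6.92 CPM at 2 Gy, 8.24, 11.4 and 10.2 CPM at 4 Gy and 7.43, 16.4 and 9.56 CPM at 7 Gy, against 5.12, 11.3 and 9.76 CPM at 0 Gy, and every set overlapped that of 0 Gy. Duoxa1 had 13.9, 16.2 and 13.8 CPM at 2 Gy, 22.4, 25.2 and 24.6 CPM at 4 Gy and 18.3, 24.3 and 23.8 CPM at 7 Gy, against 17.6, 24.7 and 15.7 CPM at 0 Gy. Duoxa1 was lower than at 0 Gy in 3 of 3 cultures at 2 Gy and higher in 3 of 3 at 4 Gy, with overlapping sets. The log2 differences of both genes at 7 Gy were 0.31 and 0.16 (edgeR adjusted p = 0.724 and 0.738).

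Across all genes day 11 held few calls. At 2 Gy edgeR called 0 of 4 of these genes and 0% of 19901 genes, with 1159 genes at an unadjusted p under 0.05, 1 gene called by DESeq2 and 72 with the culture as a block. At 4 Gy it called 0 of 4 and 0.00502% of genes, which is 1 gene or 238 with the block. Leaving out any library compared there, other than 0 Gy mTG14, left 0 genes in edgeR, where 1232 to 1697 had an unadjusted p under 0.05 and DESeq2 on all libraries called 37. At 7 Gy it called 0 of 4 and 1.52% of genes (302), or 2 of 4 and 1297 genes with the block. Leaving out any 1 of its 6 libraries gave 60.0 to 165 genes, lowest without 0 Gy mTG14.

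The dose trend at day 11 called 0 of 4 genes where 2.51% were called (499, or 1352 with the block, 287 without 7 Gy mTG11, 314 without 7 Gy mTG12 and 294 without 7 Gy mTG14). For Duox2 the slope was -0.13 log2 units per Gy (edgeR adjusted p = 0.103), which passed with the block (adjusted p = 0.00417), in DESeq2 (0.0269) and without 0 Gy mTG12 (0.0306), over a range of 0.00417 to 0.297 for all alternatives. For Duoxa2 it was -0.10 (edgeR adjusted p = 0.205), which passed with the block only (0.0321), over a range of 0.0321 to 0.518. For both genes 2 Gy lay above 0 Gy and 7 Gy below it in 3 of 3 cultures, and the differences at 2 Gy were small and not called.

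Whether the response to a dose differed between days 7 and 11 was tested as an interaction in 1 fit of the 24 libraries of these days. Duox2 was higher than at 0 Gy in 3 of 3 cultures at day 7 and lower in 3 of 3 at day 11, both at 4 Gy and at 7 Gy. Some of these gaps were very small, as in mTG14 at 4 Gy and day 11, with 67.1 against 67.8 CPM. The interaction of Duox2 was -1.76 log2 units at 7 Gy (SE 0.60, edgeR adjusted p = 0.133), and with the culture as a block -1.72 with an adjusted p of 0.0321, over a range of 3.3e-05 to 0.302. At 4 Gy it was -1.27 (adjusted p = 0.554) and at 2 Gy -0.57 (adjusted p = 0.997). For Duoxa2 the interaction at 7 Gy was -1.05 (adjusted p = 0.430), and for Duox1 and Duoxa1 it was 0.64 and 0.27.

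The interaction called 0 of 4 genes at 2 Gy, where edgeR called 0% of 21928 genes, with 1133 at an unadjusted p under 0.05, 1 called by DESeq2 and 2 with the block. At 4 Gy it called 0 of 4, where 0.109% of genes were called (24, or 131 with the block). That number was 14, 6 and 15 without 0 Gy mTG11, 0 Gy mTG14 or 4 Gy mTG12 of day 7, and 12, 13 and 64 without 0 Gy mTG11, 4 Gy mTG11 or 4 Gy mTG12 of day 11. At 7 Gy it called 0 of 4, or 1 of 4 with the block, where 3.02% of genes were called (663, or 1156 with the block). The dose comparisons of a day share their 0 Gy libraries, and the interactions share all libraries with them.

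**Figure D3:**
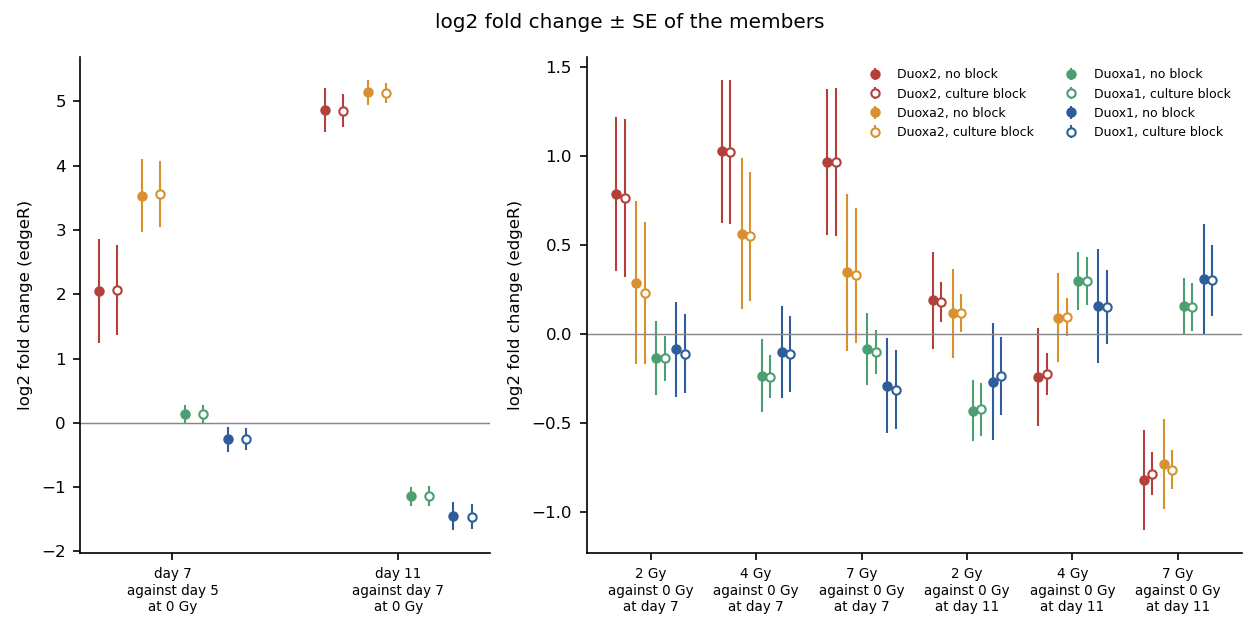
Log2 differences from edgeR, as points with bars of 1 SE, for the 4 genes in the comparisons of neighbouring days (left) and of doses with 0 Gy (right), with filled symbols for the fit without a block and open ones for the culture as a block. From day 7 to day 11 the values without a block run from 5.14 for Duoxa2 to -1.45 for Duox1, while at 7 Gy and day 11 Duox2 and Duoxa2 lie at -0.82 and -0.73.

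Of the other genes of thyroid hormone synthesis, 7 of 14 had enough counts to be tested. Between days 5 and 11, 4 rose and 1 fell, where 41.3% of all genes were called and the median log2 difference of all genes was 0.06. Slc5a8, a transporter of monocarboxylates found at the apical side of thyroid cells, rose by a log2 fold change of 2.90 (SE 0.25) and the potassium channel gene Kcnq1 by 3.81 (SE 0.56). Slc26a4, which encodes the iodide and chloride exchanger pendrin, had 31 pooled counts at day 11 against 2 at day 5, a ratio of 12.1 with a 95% exact interval of 3.08 to 104.5. Ano1, a chloride channel that also passes iodide, fell by 0.86 (SE 0.16). Of 3 thyroid transcription factor genes tested, Nkx2-1 rose by 0.75 (SE 0.19), Pax8 and Foxe1 were not called, and Hhex had too few counts to test.

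The other NADPH oxidase genes, which include subunits and binding proteins, were called about as often as all genes. Of 8 tested among 13, 3 rose and 1 fell from day 5 to day 11, where 41.3% of all genes were called, with a median of 1.36, or 0.42 when the 2 genes without counts in a group were set to the bound that 3 counts over the group allow. Cybb, the catalytic subunit known from phagocytes, rose by 3.63 (SE 0.44), its partner Cyba by 2.94 (SE 0.38) and Noxo1, an organiser of the Nox1 enzyme, by 2.53 (SE 0.20), while Nox1 itself had 1.33 counts in all and the enzyme gene Nox4 was not called. Txndc11, a thioredoxin-like protein that binds the dual oxidases, fell by 0.75 (SE 0.13). Cybb and Cyba encode the membrane part of the phagocyte oxidase. The immune marker sum, made almost wholly of the macrophage gene Cd68, was 4.14, 9.88 and 5.99 CPM at day 5, 21.7, 11.4 and 24.2 CPM at day 7 and 59.3, 35.4 and 40.0 CPM at day 11, and Cd68 was the marker of this list with enough counts to test and was called higher. Of the 4 immune markers Cd3e had 0 counts in all libraries and Ptprc, which marks all white blood cells, had 12, with 0 at days 5 and 11 without irradiation. The part of such cells in the rise of Cybb was not tested.

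Peroxidases of secretions and of white blood cells were nearly absent. Lpo had 21 counts over the 27 libraries, and Mpo and Epx had 1 each. Pxdn, a peroxidase of the extracellular matrix, was not called between days, with a log2 difference of 0.14 from day 5 to day 11.

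Genes that remove hydrogen peroxide and superoxide were all measured. Of 19 genes 3 rose and 10 fell between days 5 and 11, where 41.3% of all genes were called, with a median of -0.40. Prdx6, a peroxiredoxin that also acts on lipid peroxides, rose by 1.65 (SE 0.18), while Txn1, the thioredoxin that recycles peroxiredoxins, fell by 1.13 (SE 0.11), the glutathione peroxidase genes Gpx2 and Gpx1 by 1.06 (SE 0.10) and 0.70 (SE 0.08) and Prdx1 by 0.48 (SE 0.08). At 7 Gy and day 7 Gpx3 was called higher and Gpx2 lower (6.95% of all genes called), and at 7 Gy and day 11 none of the 19 was called (1.52% of all genes called).

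Mucosal inflammatory and defence genes formed a mixed group. By day 11, compared with day 5, 7 of 15 rose and 4 fell, where 41.3% of all genes were called, with a median of 1.88. Ltf, the iron-binding lactoferrin of secretions, rose by 6.46 (SE 0.22), from 98.2 ± 10.4 CPM to 7791 CPM with an SD of 1140.3 CPM (n = 3 each). Pigr, which carries antibodies across epithelia, rose by 3.70 (SE 0.30), the siderophore-binding Lcn2 by 3.21 (SE 0.66) and the chemokine gene Cxcl5 by 1.77 (SE 0.37), while the protease inhibitor gene Slpi was called lower. The largest falls of the list were those of S100a9 and S100a8, the subunits of calprotectin, by 5.94 (SE 0.39) and 5.02 (SE 0.44). At 7 Gy and day 11 only Nfkbiz, a nuclear regulator of NF-kB targets, was called (1 of 15, against 1.52% of all genes), with a log2 value of 0.47 (SE 0.10) and a list median of 0.34.

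Most interferon response genes rose from day 5 to day 11 without irradiation and at 7 Gy of day 7. Of 11 genes 10 rose between days 5 and 11 (41.3% of all genes called), with a median of 3.13, among them Irf7 by 6.03 (SE 0.60), Ifit1 by 5.85 (SE 0.69) and Isg15 by 4.53 (SE 0.65). At 7 Gy 10 of 11 rose at day 7 (6.95% of all genes called), with a median of 2.48 against 0.01 for all genes, and 4 of 11 at day 11 (1.52% of all genes called), with a median of 1.56. Those of day 11 included Stat2 by 1.56 (SE 0.28), Rsad2 by 2.68 (SE 0.56) and Cxcl10 by 3.18 (SE 0.53). None of the 11 was called at 2 Gy or 4 Gy of either day, where at most 1.63% of all genes were called. Without irradiation Cxcl10 was not called from day 5 to day 11. From day 7 to day 11 it was called lower, at a log2 value of -2.70 (SE 0.82), where 21.2% of all genes were called. Interferons are known to raise Duox2 and Duoxa2 in airway epithelium. Both rose between days 5 and 11 as well. At 7 Gy Duox2 had higher values than at 0 Gy in 3 of 3 cultures at day 7, without a call, and both had lower values at day 11. A link to interferons was not tested.

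Markers of other cell types differed between days and between doses. From day 5 to day 11, where 41.3% of all genes were called, all 3 basal markers fell and all 3 ciliated markers rose. The ciliated sum was 2.76, 3.04 and 1.71 CPM at day 5, with Foxj1 and Dnah5 at 0, 5.73, 7.16 and 4.37 CPM at day 7 and 43.3, 42.1 and 20.6 CPM at day 11, with Foxj1 the most abundant. Of the other lists 2 of 5 suprabasal markers rose and 2 fell, 1 of 7 airway secretory markers rose and 2 fell, and 3 of 5 fibroblast markers fell. The fibroblast sum, led by Col1a2 at day 5 and Dcn at day 11, was 28.3, 105.3 and 100.1 CPM at day 5 and 5.24, 37.0 and 26.1 CPM at day 11. At 7 Gy and day 11, where Duox2 and Duoxa2 had lower values, the ciliated sum was 9.70, 17.4 and 6.01 CPM. It was about as low at 2 Gy, at 18.8, 15.0 and 8.92 CPM, and at 4 Gy, at 15.9, 8.55 and 8.00 CPM. The log2 differences of Foxj1 were -1.19 at 2 Gy and -1.67 at 4 Gy and were not called, at doses where edgeR called 0% and 0.00502% of all genes. At 7 Gy, where 1.52% of all genes were called, 1 of 3 ciliated markers was called (Foxj1, by a log2 value of -1.74, SE 0.39) and the basal sum was 3817 CPM, 5940.2 CPM and 4765 CPM with 0 of 3 called. The C cell sum there, almost all Calcb, was 14.5, 12.8 and 8.47 CPM against 4.76, 2.41 and 2.20 CPM at 0 Gy, with Calcb called and Chga at 0. At 7 Gy and day 7, where Duox2 had higher values without a call and 6.95% of all genes were called, the C cell sum was 87.5, 89.4 and 77.2 CPM against 22.4, 39.2 and 18.3 CPM at 0 Gy with Calcb called higher, 1 of 3 basal markers fell, and 2 of 5 suprabasal markers rose and 1 fell. The part of all these markers in the values of the dual oxidase genes was not tested.

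The genes of most like course were taken by Pearson r of log2(CPM + 1) over the 27 libraries, which share days, doses and cultures. For Duox2 the first was Duoxa2 at 0.984, followed by the glucose transporter gene Slc5a1 at 0.971, Paqr8 at 0.970, Clca3b at 0.970 and Tmie at 0.969. Within groups, as deviations from group means, Duox2 and Duoxa2 had an r of 0.519. With Duox2 that of Slc5a1 was 0.629, of Clca3b 0.627, of Paqr8 0.612 and of Tmie 0.278. For Duoxa2 they were Duox2, Slc5a1 at 0.979, Errfi1, a feedback inhibitor of the EGF receptor, at 0.975, Eps8l2 at 0.973 and Clca3b at 0.972.

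Duox1 had other companions. Fabp5l2, Gm14328, Gm6166, Gm6551 and Fabp5 had r of 0.953, 0.950, 0.949, 0.947 and 0.947. Fabp5 encodes an epidermal fatty acid binding protein, and its copies may share reads with it, so these genes may not be separate measurements. For Duoxa1 the genes were Cyp4f39 at 0.914, Mgst3 at 0.907, Rab24 at 0.903, Ly6d at 0.901 and Them5 at 0.899. With TMM factors 3 of these 5 stayed (without Rab24 and Them5), against 5 of 5 for each other gene of the family. Of these, Cyp4f39 makes omega-hydroxy fatty acids of the skin barrier and Ly6d is known from squamous epithelium. Between the oxidases themselves the r of Duox1 and Duox2 was -0.918. Duox1 and its partner Duoxa1 had an r of 0.808 over all libraries and -0.0537 within groups.

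Since the genes of a couple start side by side and Duox2 and Duoxa2 moved together, the sequence around each start is shown. The stretches are 300 bases from RefSeq in build GRCm38.p6, and 4 of 4 genes matched. The GENCODE 5′ end lies at base 250 of the stretch of Duoxa2, base 245 for Duoxa1 and base 251 for Duox1. For Duox2 it lies at base 29, so most of that stretch falls within the first exon of GENCODE and is not the sequence upstream of that start. Duox2 is at chr2:122298178-122298477 on the minus strand, Duoxa2 at chr2:122298650-122298949 on the plus strand, Duoxa1 at chr2:122313681-122313980 on the minus strand and Duox1 at chr2:122315422-122315721 on the plus strand. Capitals mark matches to the motifs searched on both strands, written on the strand of the gene.
Duox2: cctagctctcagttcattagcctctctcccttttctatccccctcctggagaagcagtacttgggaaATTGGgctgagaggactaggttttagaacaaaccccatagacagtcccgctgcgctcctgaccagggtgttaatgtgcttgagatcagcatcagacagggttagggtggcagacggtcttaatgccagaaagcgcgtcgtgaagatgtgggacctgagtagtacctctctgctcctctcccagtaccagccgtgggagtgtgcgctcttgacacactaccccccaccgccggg
Duoxa2: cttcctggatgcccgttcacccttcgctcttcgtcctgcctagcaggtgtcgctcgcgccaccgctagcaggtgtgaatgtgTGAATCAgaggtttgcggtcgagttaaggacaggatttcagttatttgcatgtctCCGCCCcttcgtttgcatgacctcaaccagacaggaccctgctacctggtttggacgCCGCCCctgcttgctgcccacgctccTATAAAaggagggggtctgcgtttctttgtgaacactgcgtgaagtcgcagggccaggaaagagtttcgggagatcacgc
Duoxa1: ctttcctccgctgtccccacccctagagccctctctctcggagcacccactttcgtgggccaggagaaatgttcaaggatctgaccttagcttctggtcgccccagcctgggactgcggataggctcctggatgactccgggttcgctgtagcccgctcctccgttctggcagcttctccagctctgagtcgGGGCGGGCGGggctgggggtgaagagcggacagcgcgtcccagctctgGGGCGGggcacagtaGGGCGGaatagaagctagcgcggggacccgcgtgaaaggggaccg
Duox1: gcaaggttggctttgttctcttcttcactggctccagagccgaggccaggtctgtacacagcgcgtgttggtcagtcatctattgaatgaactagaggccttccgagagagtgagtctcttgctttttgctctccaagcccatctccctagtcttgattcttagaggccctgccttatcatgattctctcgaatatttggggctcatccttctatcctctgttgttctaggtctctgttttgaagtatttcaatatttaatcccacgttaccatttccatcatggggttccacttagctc
The motifs searched included the TATA box, the CCAAT box, the GC box and the sites of interferon regulatory factors (IRF) and NF-kB. They also included TGANTCA, where N is any base, a looser pattern than the AP-1 site TGACTCA or TGAGTCA. Duoxa2 held a TATA box at bases 221 to 226, a TGANTCA match at bases 83 to 89 and GC boxes at 2 places. The middle base of that TGANTCA match is A, so it is not the AP-1 site itself. Duox2 held a CCAAT box at bases 68 to 72 on the opposite strand. Duoxa1 held GC boxes at 4 places, of which the first pair overlaps, and Duox1 held none of these. Among 32851 RefSeq promoters of the same length 13.6% held the TATA box, 37.4% the CCAAT box, 35.7% the GC box and 7.81% the pattern TGANTCA, so such matches are common. The IRF and NF-kB sites, in 3.44% and 8.46% of promoters, were in none of the 4. A match is a run of letters and no evidence of binding.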

How the data were processed

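Smart3SEQ libraries of polyA RNA were aligned by the submitters to GRCm39, and their processing notes name STAR and edgeR, without versions. The values the authors deposited are estimated counts for each gene symbol, without normalization. The counting tool, annotation, strand and handling of molecular identifiers are not given in the sources used here. Of the nonzero values 43.7% were fractional, and counts were rounded to whole numbers for tests, since whole counts had been assumed. Of the symbols, 96.7% were in a RefSeq table, and coordinates came from GENCODE of GRCm39.

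Differences were tested with edgeR 4.0.16 (R 4.3.3), using the quasi-likelihood test, TMM factors, genes with at least 10 counts summed over a fit and Benjamini-Hochberg adjustment over all genes at 0.05. The SE given with a log2 value is the size of that value divided by the square root of the F statistic of its test. It is not a separate estimate of error, and at very low counts it can be too small. Days were fitted over the 9 non-irradiated libraries, doses over the 12 libraries of a day and interactions over the 24 libraries of days 7 and 11. Alternatives were DESeq2 1.42.0, no TMM factors, other filters, a block for the culture, only the compared groups, each library left out in turn, other CPM scales and pseudocounts and, chosen after seeing the data, unrounded counts. The test was tried on simulated data. Ratios of pooled counts carry exact 95% intervals, and CPM, ratios and figures were made in Python 3.11.15. The smallest chi-square between replicates was 3.39 per degree of freedom over 27 pairs.

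Column names give 3 cultures, and which of the 3 mice numbered in the labels each one is was not given in the sources used here. The study's methods describe replicates as separate animals, 3 for these libraries, while the series record speaks of 4 mice. After subtracting group means, libraries from 1 culture were correlated, with a mean r of 0.221 over 15362 genes. The lowest r was 0.0527 and 106 of 108 pairs were over 0.1, so cultures were treated as pairs in the block. Between cultures the mean r was -0.110. Subtracting the mean of 3 libraries forces a negative value there when libraries of 1 culture correlate, so it is no separate evidence of pairing.

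Genes were named by a rule. It took the 4 members, up to 5 genes of each list and comparison in order of mean CPM among those with adjusted p under 0.05, and for each member the 5 genes of most like pattern with a mean of at least 5 CPM. Marker genes, genes named for a lack of counts or of a call, and S100a8 and S100a9, named as largest falls, lie outside it, and some genes it takes are not reported here. The members, the lists and the searched motifs were chosen with earlier results of these data known.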

Additional observations from a re-analysis of the deposited data

Results flagged for a closer look

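Duox2 stood out because at 4 Gy and at 7 Gy every culture was higher than at 0 Gy on day 7 and lower on day 11. Some of these gaps were very small. At 4 Gy mTG11 had 9 against 7.5 counts on day 7, and mTG14 had 67.1 against 67.8 CPM on day 11. At 7 Gy mTG12 had 14 against 12 counts on day 7. Both doses were compared with the same 0 Gy libraries. The log2 difference between the responses was -1.76 at 7 Gy (SE 0.60, edgeR adjusted p = 0.133, and 0.0321 with the culture as a block) and -1.27 at 4 Gy (SE 0.58, edgeR adjusted p = 0.554). Over their alternatives the adjusted p ranged from 3.3e-05 to 0.302 at 7 Gy and from 0.0197 to 0.810 at 4 Gy. At day 7 the group means of Duox2 were 2.14 CPM at 0 Gy, 4.48 CPM at 4 Gy and 4.31 CPM at 7 Gy, and at day 11 they were 64.3 CPM, 55.5 CPM and 37.4 CPM. No cause was tested.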

How the results depend on the processing

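With the culture as a block, which pairs libraries by culture, the number of genes called was 138, 1009 and 2193 at 2, 4 and 7 Gy of day 7, 72, 238 and 1297 at day 11, 1352 for the dose trend of day 11 and 2, 131 and 1156 for the interactions at 2, 4 and 7 Gy. The block gave the calls named for Duox2 and Duoxa2 (7 Gy and day 11, at -0.78 and -0.76, the trends of day 11, days 5 to 7 for Duox2 and the interaction of Duox2 at 7 Gy, at -1.72) and changed no other call of the 4 genes. DESeq2 called 59 genes at 2 Gy of day 7, 1, 37 and 802 for 2 Gy, 4 Gy and the trend of day 11 and 1 and 78 for the interactions at 2 and 4 Gy, and gave an interaction of -1.78 for Duox2 at 7 Gy (adjusted p = 0.0239). Without a filter on low counts edgeR called 404, 1263 and 2211 genes at 2, 4 and 7 Gy of day 7, 267, 465 and 1205 at day 11 and 95, 400 and 1234 for the interactions. That setting also called Duox2 and Duoxa2 at 7 Gy of day 11 (-0.80 and -0.71) and in the interaction (-1.76 and -1.05). With only the compared groups 7 genes were called at 2 Gy of day 7 and 0 at 4 Gy of day 11.

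Leaving out 1 library at a time gave 8 to 24, 125 to 229 and 705 to 1000.0 genes at 2, 4 and 7 Gy of day 7, 0 to 1 and 60.0 to 165 at 4 and 7 Gy of day 11, 287 to 626 for the trend of day 11 and 6 to 64 for the interaction at 4 Gy. In these fits a group of 2 libraries shares the spread of the others. The log2 difference of Duoxa1 from day 5 to day 7 was -0.0179 without TMM factors. Differences without a call changed sign when a library was left out. For Duox1 they ran from -0.49 to 0.0908 and from -0.50 to 0.00531 at 2 and 7 Gy of day 7, from -0.13 to 0.36 and from -0.0774 to 0.56 at 4 and 7 Gy of day 11 and from -0.44 to 0.21 and from -0.0111 to 0.50 in the interactions at 2 and 4 Gy. For Duoxa1 they ran from -0.27 to 0.0461 and from -0.22 to 0.11 at 2 and 7 Gy of day 7 and from -0.0338 to 0.0078 in its trend. Duox2 had -0.0439 to 0.44 at 2 Gy of day 11. Duoxa2 had -0.43 to 0.74 at 2 Gy of day 7, -0.0477 to 0.27 and -0.0746 to 0.23 at 2 and 4 Gy of day 11 and -0.63 to 0.57 in the interaction at 2 Gy. Of all alternatives for the 4 genes 453 gave the same result, 16 a stronger one and 15 another sign. CPM scaled with TMM factors moved 1 of 36 group means and totals without ribosomal and mitochondrial genes 11.

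The cultures number 3, described as separate animals, so the spread between animals rests on few of them. Bulk RNA does not separate cell types, and the cause of any difference was not tested. Counting settings, and with them the overlap of 3′ ends on opposite strands, could not be checked. RNA levels say nothing on protein, on its place at the membrane or on peroxide made.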
